A study of Mus musculus with 10 samples.

Results

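Imprinted growth genes were followed in the NRAS-mutant mouse melanoma line WT31 and its subline WT31_P5IV. The set holds 10 genes, Plagl1, Peg3, Mest, Cdkn1c, Grb10, H19, Igf2, Meg3, Dlk1 and Ndn, of 55385 gene identifiers in the deposited tables, and all 10 were found. The genes were chosen by name with their values in these libraries known, above all the rise of Plagl1, so their own differences between the lines are given as a description and without a test. The mice from which WT31 came had the genotype Tyr::NrasQ61K/°; INK4a−/−, and both lines carry this background. In it, the tyrosinase promoter drives mutant Nras in pigment cells and Ink4a is knocked out on both copies. WT31_P5IV was obtained from WT31 by 5 cycles of injection into the tail vein, recovery of tumor cells from the liver and expansion in culture. Each line was represented by 5 RNA-seq libraries of untreated, sub-confluent cells grown in RPMI 1640 with 10% fetal calf serum, so no library came from a metastasis. The subline is a single one, and differences that arose in any passage through 1 mouse or dish cannot be told apart from those that hepatic passaging brings about in general. The labels call the libraries of a line biological replicates, and p-values measure only the spread between these libraries.

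Imprinted genes are expressed mainly from the copy inherited from 1 parent, because DNA methylation set in the egg or sperm marks a control region and is kept through later cell divisions. Many of them act on fetal growth, with paternally expressed genes such as Igf2 often promoting it and maternally expressed genes such as Cdkn1c often restraining it. A group of them, with the zinc finger factor gene Plagl1 among its best known members, is expressed together in the embryo and is lowered in most tissues after birth. RNA-seq of this kind counts both parental copies together, so the allele in use was not measured.

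The depth was even, with 24255389 to 25750639 estimated counts per library. Levels are given as CPM, counts scaled to library size, which compare 1 gene between libraries, and as TPM, which also take transcript length into account and compare levels between genes. A count of 3, taken as the limit of detection, corresponded to 0.114 to 0.129 CPM. The melanocyte markers were present, with all 7 genes detected and a summed level of 17046 to 18443 CPM in WT31 and 22228 to 25730 CPM in WT31_P5IV. Endothelial markers summed to 0.158 to 0.492 CPM in WT31 and 0.121 to 0.421 CPM in WT31_P5IV, with 4 of 6 genes under the limit of 3 counts in every library, and hepatocyte markers to 0.341 to 0.627 and 0.483 to 1.30 CPM. Macrophage and leukocyte markers summed to 4.84 to 6.68 CPM in WT31 and 4.22 to 6.24 CPM in WT31_P5IV, with Ptprc at 0 to 2 counts. Of these markers 2 could be tested, and they moved in opposite directions, with Cd68 at a log2 fold change of 1.45 (edgeR, adjusted p = 1.16e-05, 20 to 50 counts in WT31 and 80 to 117 in WT31_P5IV) and Lyz2 lower (adjusted p = 7.64e-09, 92 to 129 counts in WT31 and 21 to 30 in WT31_P5IV). Fibroblast and stellate cell markers summed to 3.58 to 4.70 CPM in WT31 and 5.56 to 6.92 CPM in WT31_P5IV, and 4 of the 6 tested rose in edgeR, where 68.5% of all tested genes were called in either direction. In WT31, replicates 2 and 3 deviated together from the line's mean (r = 0.82), and replicates 4 and 5 did so in the opposite direction (r = 0.81). Of these pairs, only replicates 2 and 3 were left out together. Without them, the log2 fold changes of WT31_P5IV over WT31 were 5.01 for Plagl1, 0.53 for Mest, 0.01 for Grb10 and -0.51 for Cdkn1c. Cdkn2a, the gene of the Ink4a locus, which also encodes p19Arf, had 63 to 84 counts across all libraries, and counts per gene do not tell its transcripts apart.

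Over all genes, 13620 had enough counts to be tested, and 9327 differed between the lines at an adjusted p under 0.05 in edgeR, 4709 of them higher in WT31_P5IV and 4618 lower. With limma on log2(TPM + 0.1) this split was 2915 to 5946, and the median difference of a gene's log2 fold change from that of edgeR was -0.17. Against this background of 68.5%, a call alone says little about any single gene, and the size of a change carries more information. The median log2 fold change of all tested genes was 0.01, and the median of its absolute value 0.30. Of all tested genes, 1240 (9.10%) were called and reached a log2 fold change of at least 1 in size.

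Of the 10 imprinted growth genes, 4 had enough counts to be measured, namely Plagl1, Mest, Grb10 and Cdkn1c. The other 6, Peg3, H19, Igf2, Meg3, Dlk1 and Ndn, did not exceed 3 counts in any library of either line. Plagl1 and Mest were higher in all WT31_P5IV libraries than in any of WT31, and the libraries overlapped for Grb10 and Cdkn1c. Among all tested genes 34.6% were called as higher, 33.9% as lower, and 54.1% had groups that did not overlap. Since this contrast chose the genes, nothing is read from their count.

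**Figure D1:**
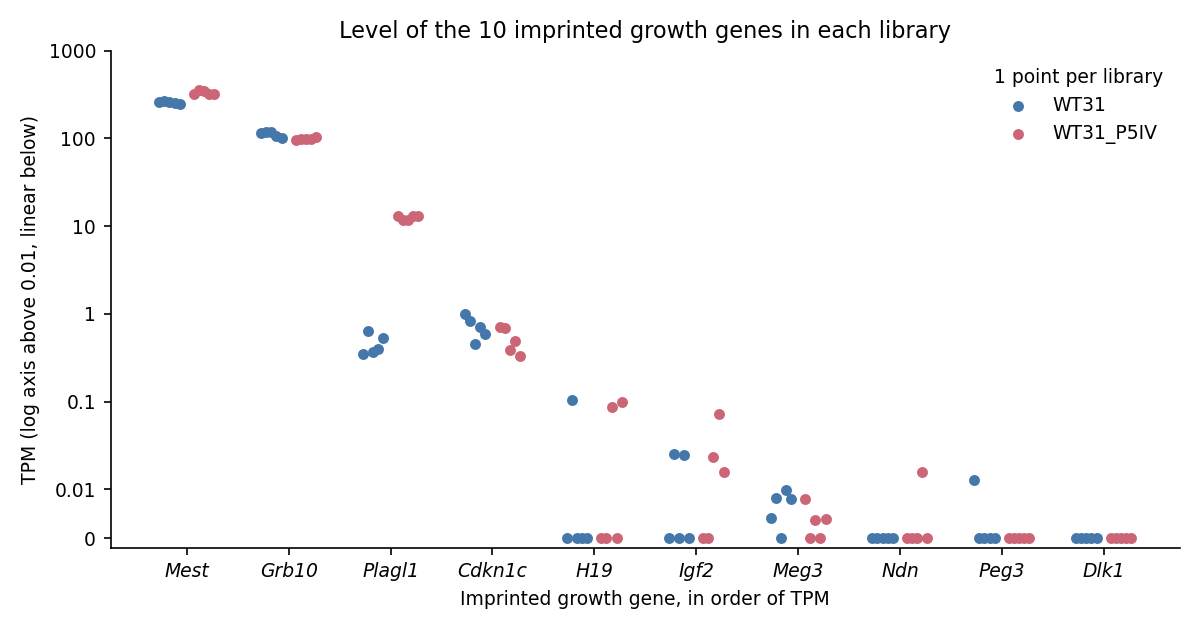
TPM of the 10 imprinted growth genes (x axis, in order of level) in each of the 5 WT31 and 5 WT31_P5IV libraries (y axis, logarithmic above 0.01 TPM and linear below). Mest and Grb10 lie at 95.8 TPM or above in both lines, Plagl1 moves from below 1 TPM to between 11.7 and 13.1 TPM, and 6 genes lie at or near 0.

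By TPM, Mest was the most abundant of the 10 genes in both lines, followed by Grb10, and the libraries of these genes did not overlap with each other. In WT31, Cdkn1c came next with 0.718 ± 0.212 TPM (SD, n = 5) and Plagl1 with 0.456 ± 0.124 TPM (SD, n = 5), and their ranges overlapped. In WT31_P5IV, Plagl1 came after Grb10 with 12.5 ± 0.701 TPM (SD, n = 5), above Cdkn1c with 0.521 ± 0.171 TPM (SD, n = 5) and without overlap.

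Sequences of start regions were available for 8 of the 10 genes in RefSeq (build GRCm38.p6), each covering 250 bases before and 50 after an annotated transcript start. The windows of Plagl1, Mest and Grb10 are shown because these genes carry the contrast between a gene that was nearly silent in WT31 and genes that were abundant in both lines. Plagl1 has 1 window, Mest has 3 and Grb10 has 2, and for the latter genes the window printed is one with the most CG dinucleotides. They are written 5′ to 3′ on the strand of the gene, and capitals mark CG dinucleotides, the bases at which imprints are methylated.
Plagl1, chr10:13090582-13090881, plus strand: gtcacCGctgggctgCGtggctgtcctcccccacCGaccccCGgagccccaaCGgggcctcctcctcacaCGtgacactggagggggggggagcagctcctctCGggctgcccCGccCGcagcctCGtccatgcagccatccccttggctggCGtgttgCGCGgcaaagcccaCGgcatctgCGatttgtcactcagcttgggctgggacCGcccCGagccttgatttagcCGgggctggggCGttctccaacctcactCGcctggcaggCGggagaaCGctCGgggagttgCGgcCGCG
Mest, chr6:30737800-30738099, plus strand: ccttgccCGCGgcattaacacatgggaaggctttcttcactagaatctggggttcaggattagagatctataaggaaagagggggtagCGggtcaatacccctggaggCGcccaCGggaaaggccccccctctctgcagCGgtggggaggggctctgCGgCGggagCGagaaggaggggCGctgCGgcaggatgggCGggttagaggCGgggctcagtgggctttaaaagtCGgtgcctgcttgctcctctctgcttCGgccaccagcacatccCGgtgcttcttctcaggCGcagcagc
Grb10, chr11:12037371-12037670, minus strand: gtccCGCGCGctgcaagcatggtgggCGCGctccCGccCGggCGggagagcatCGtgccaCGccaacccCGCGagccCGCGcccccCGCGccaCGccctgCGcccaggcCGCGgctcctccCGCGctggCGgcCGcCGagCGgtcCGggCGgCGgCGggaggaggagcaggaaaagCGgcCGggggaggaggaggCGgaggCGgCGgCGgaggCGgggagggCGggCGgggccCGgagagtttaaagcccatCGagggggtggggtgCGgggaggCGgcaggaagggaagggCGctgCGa

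The Plagl1 window held 26 CG dinucleotides at a G and C content of 70.7%, and 16.9% of the 32851 windows of all genes held as many. The Mest window held 17, reached by 31.4% of all windows, and the Grb10 window held 45, reached by 1.93%. The windows not printed differed from these in part, with 8 in the first Mest window, 17 in the third and 9 in the second Grb10 window. The median over all windows was 7. The letters TGCCGC, in which the imprint-keeping factor ZFP57 binds the methylated form, were searched on both strands and occurred once in the Plagl1 window, in 2 places in the Mest window and once in the Grb10 window, where 11.6% of all windows hold them. They did not occur in the first Mest window or in the second Grb10 window. Of the 15 windows of the 8 genes, 6 held them. These letters contain a CG, and the printed Mest and Grb10 windows were chosen for their CG dinucleotides, so no excess can be read from this. The letters GGGGGGCCCC, a motif reported for the PLAGL1 protein and likewise searched on both strands, occurred in none of the 15 windows of the 8 genes and in 0.0852% of all windows. A match of letters is a description of the sequence, and methylation and binding were not measured here.

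Plagl1 encodes a zinc finger transcription factor, also named ZAC1, that is expressed from the paternal copy, can arrest the cell cycle and promotes cell death in cultured cells, and binds near many other imprinted genes. It lies on chromosome 10 at 13060504 to 13131694 on the plus strand (GRCm38, ENSMUSG00000019817.18). The WT31 libraries held 30, 34, 31, 34 and 31 estimated counts of Plagl1 and the WT31_P5IV libraries 1016, 921, 970, 1000 and 991. Every WT31_P5IV library was far above every WT31 library, and within each line the libraries were close together. In CPM the gene moved from 1.25 ± 0.0632 (SD, n = 5) to 40.9 ± 1.61 (SD, n = 5), a ratio of 32.7. The log2 fold change was 5.03 with a standard error (SE) of 0.06 in edgeR, which placed Plagl1 sixth among the increases of all 13620 tested genes. The SE was larger in DESeq2, at 0.13, and in limma voom, at 0.10. In WT31 the level lay above the limit of 3 counts in every library, so that the gene was low there but detectable.

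The spread of Plagl1 was small in both lines. In WT31 the SD of its CPM was 5.06% of the mean, below the 17.7% that counting error alone gives at this depth, and in WT31_P5IV it was 3.93%, close to the 3.20% of counting error. The TPM of Plagl1 in WT31 ranged more widely, from 0.347 to 0.637, although its counts lay between 30 and 34. TPM depend on the lengths of the transcripts to which counts are assigned, and GENCODE M21 lists 25 transcripts of this gene. Of the words of 31 bases in these transcripts, 0.248% also occur in a transcript of another gene, and the annotated gene that overlaps Plagl1 on the other strand, Gm27741, had 0 counts in all libraries.

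Mest, also named Peg1, is expressed from the paternal copy, encodes a protein of the alpha/beta hydrolase fold and is known as a marker of growing fat and of embryonic mesoderm. Its counts were 10244, 10598, 10197, 10392 and 10045 in WT31 and 13579, 15052, 15056, 13572 and 13193 in WT31_P5IV. All 5 WT31_P5IV libraries were above all 5 WT31 libraries, and they varied more among themselves than those of WT31. The CPM of Mest were 402 ± 4.00 (SD, n = 5) in WT31 and 588 ± 38.8 (SD, n = 5) in WT31_P5IV, with a log2 fold change of 0.55 (SE 0.04). In TPM the levels were 259 ± 7.84 (SD, n = 5) and 334 ± 17.1 (SD, n = 5). Mest lies on chromosome 6, where the 677 tested genes had a median log2 fold change of 0.28, against 0.01 over all genes. This was the highest median among the autosomes and the X chromosome, and the part of this shift in the value of Mest was not tested. Mest also overlaps the end of Copg2 on the opposite strand by 912 bases, 22.0% of its words of 31 bases are shared with that gene, and the strand setting of the counting was not known. Copg2 had a log2 fold change of 0.05 (edgeR, adjusted p = 0.319) at 1896 to 2234 counts.

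Grb10 encodes an adaptor protein that binds the insulin and IGF1 receptors and restrains growth, and its imprinting depends on the tissue and transcript, being maternal in most tissues and paternal in neurons. The WT31 libraries held 9414, 9709, 9498, 8951 and 8632 counts and the WT31_P5IV libraries 8260, 8629, 8816, 8400 and 9018. The CPM of both lines covered nearly the same range, with means of 361 ± 13.1 (SD, n = 5) in WT31 and 360 ± 11.0 (SD, n = 5) in WT31_P5IV. The log2 fold change was -0.0034 (SE 0.04), and its sign changed with the scaling. In TPM Grb10 was 112 ± 6.91 (SD, n = 5) in WT31 and 99.3 ± 3.43 (SD, n = 5) in WT31_P5IV, with a log2 fold change of -0.17 in limma on log2(TPM + 0.1).

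Cdkn1c encodes p57Kip2, an inhibitor of cyclin-dependent kinases that is expressed from the maternal copy. It was close to the lower end of what could be measured, with 24, 24, 13, 21 and 18 counts in WT31 and 20, 13, 12, 15 and 10 in WT31_P5IV. The lines overlapped, since 4 of the WT31_P5IV libraries were at or below 15 counts but WT31 replicate 3 had only 13. The CPM were 0.779 ± 0.175 (SD, n = 5) in WT31 and 0.585 ± 0.165 (SD, n = 5) in WT31_P5IV, and the log2 fold change was -0.41 (SE 0.24). Of the words of 31 bases in its transcripts, 27.2% also occur in the antisense gene Gm44732, which had at most 2 counts per library.

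**Figure D2:**
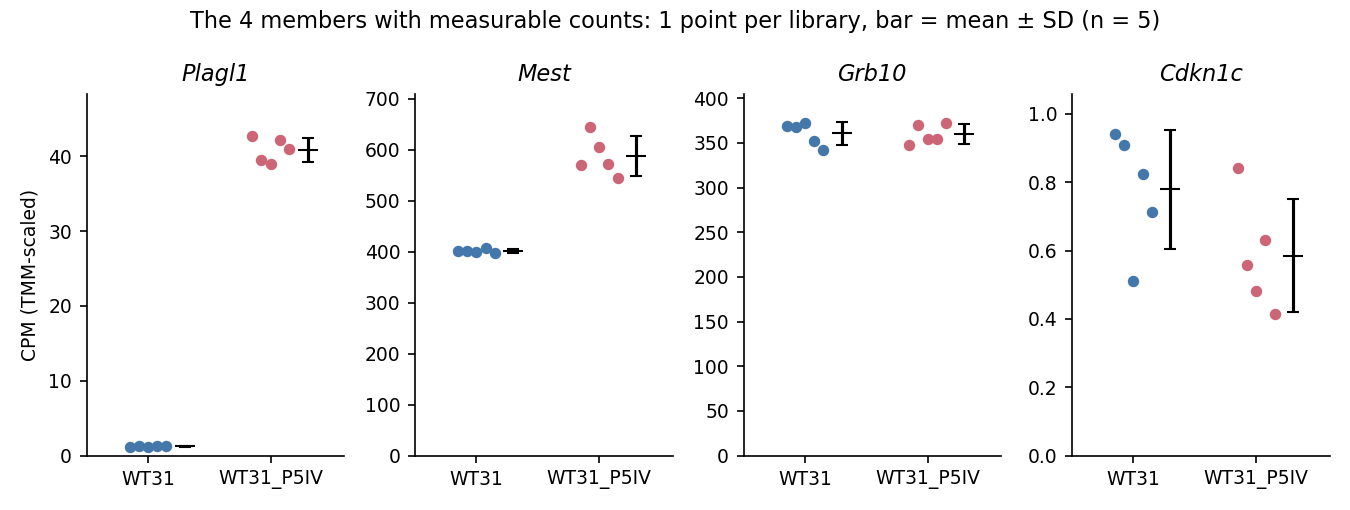
CPM on TMM-scaled library sizes of Plagl1, Mest, Grb10 and Cdkn1c (y axes from 0) in the libraries of WT31 and WT31_P5IV (x axes), with 1 point per library and a bar for the mean ± SD of 5 libraries. Plagl1 and Mest separate the lines, and the libraries of both lines overlap for Grb10 and Cdkn1c.

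The remaining 6 genes were not detectable in either line at this depth. Igf2, the fetal growth factor, had 2 counts over all WT31 libraries and 3 over all WT31_P5IV libraries. H19, the noncoding RNA transcribed from the maternal copy beside Igf2, had 2 in each line. Igf2 shares 61.9% of its words of 31 bases with the readthrough gene Gm49394, which had 0 counts in every library. The levels of both genes of this pair were thus at or under the limit of 3 counts per library in both lines.

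Dlk1, a paternally expressed inhibitor of fat cell formation with a Notch-ligand-like structure, had 0 counts in all 10 libraries, which allows up to 3 counts in each. Meg3, the maternally expressed noncoding RNA of the same region, had 6 counts over the WT31 libraries and 4 over the WT31_P5IV libraries, never more than 2 in 1 library. Peg3, a paternally expressed zinc finger gene, had 1 count in WT31 and 0 in WT31_P5IV. Ndn, which encodes the paternally expressed growth suppressor necdin, had 0 and 1. No fold is given for these 6 genes, since both lines were at or under the limit.

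Apart from these 10, 58 imprinted genes were listed and found, and 24 of them were likewise not above 3 counts in any library. Of the 23 that could be tested, 17 differed in edgeR, of which 12 rose and 5 fell in the subline. For 16 of the 23 the libraries of the lines were fully separate. The median log2 fold change of the 23 genes was 0.37, against 0.01 over all genes. Among all tested genes 68.5% were called, 34.6% as higher and 33.9% as lower, and 54.1% had no overlap. Genes listed as expressed from the paternal copy numbered 11, with 6 higher, 2 lower and a median of 0.37. Those listed for the maternal copy also numbered 11, with 6 higher, 3 lower and a median of 0.53. These labels are not specific to these cells, in which the copy in use was not measured. With TPM in limma the split of the calls was 10 higher and 8 lower.

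Of these 23 genes, 4 were called and passed a log2 fold change of 1 in size, beside 9.10% of all tested genes. Pon3, Sgce and Kcnq1ot1 moved upwards and Gatm downwards. Kcnq1ot1 fell short of 1 without WT31 replicate 1 (0.99) or 4 (0.98), without WT31_P5IV replicate 5 (0.95), without scaling factors (0.99) and with TPM (0.59 and 0.15). Sgce, which encodes the membrane protein epsilon-sarcoglycan and is expressed from the paternal copy, had 1497, 1463, 1378, 1528 and 1561 counts in WT31 and 3309, 3650, 3531, 3038 and 3470 in WT31_P5IV. It rose by a log2 fold change of 1.29 (SE 0.05, adjusted p = 5.14e-11), with no overlap. Pon3, a paraoxonase of lipid metabolism, had 100 to 139 counts in WT31 and 281 to 313 in WT31_P5IV and rose by 1.46 (SE 0.08, adjusted p = 1.32e-09). Gatm, which encodes the enzyme of the first step of creatine synthesis, had 74, 76, 94, 88 and 81 counts in WT31 and 14, 12, 14, 10 and 26 in WT31_P5IV. It fell to a log2 fold change of -2.34 (SE 0.19, adjusted p = 6.70e-08), and the highest WT31_P5IV library was still far below the lowest WT31 library.

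The imprinted cluster around Peg10 and Sgce on chromosome 6 was higher in WT31_P5IV in all 4 of its tested genes. They are listed partly as paternally and partly as maternally expressed. Beside Pon3 and Sgce these were Ppp1r9a, which encodes a protein that binds actin and protein phosphatase 1, and Peg10, a gene derived from a retrotransposon. Ppp1r9a moved from 53.1 ± 7.93 CPM (SD, n = 5) to 103 ± 9.74 CPM (SD, n = 5), a log2 fold change of 0.96 (SE 0.09, adjusted p = 2.32e-07). Peg10 rose by 0.47 (SE 0.06, adjusted p = 7.62e-06). The median log2 fold change of the 4 genes was 1.13, against 0.28 for all tested genes of chromosome 6, and how far the shift of this chromosome contributes was not tested. These 4 genes rose in every setting tried, and among all tested genes 34.6% were called as higher.

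In the Igf2r region, Igf2r, the maternally expressed receptor that binds IGF2 and delivers it for degradation, rose from 287 ± 35.3 CPM (SD, n = 5) to 475 ± 29.9 CPM (SD, n = 5). Its log2 fold change was 0.73 (SE 0.07, adjusted p = 4.83e-07). The noncoding RNA Airn, which overlaps Igf2r on the other strand by 28354 bases and silences it on the paternal copy, rose by 0.37 (SE 0.09, adjusted p = 0.00244), but not in the analysis of TPM. Without a known strand setting, the counts of these overlapping genes cannot be fully told apart.

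In the Kcnq1 region, which also holds Cdkn1c, 3 of the 5 tested genes other than Cdkn1c rose and 1 fell, where 68.5% of all tested genes were called. Kcnq1ot1, the paternally expressed noncoding RNA that silences this region, had 185 to 310 counts in WT31 and 346 to 588 in WT31_P5IV and rose by 1.06 (SE 0.14, adjusted p = 9.41e-06). The gene on its other strand, Kcnq1, had at most 2 counts in any library. Cd81, which encodes a tetraspanin of the cell surface, had 8976 to 10035 counts in WT31 and 13499 to 14539 in WT31_P5IV and rose by a log2 fold change of 0.64 (SE 0.05, adjusted p = 1.46e-08). Tssc4 rose by 0.53 (adjusted p = 1.31e-06) and Nap1l4, which encodes a histone chaperone, fell to -0.24 (adjusted p = 6.55e-06). Osbpl5 had a log2 fold change of 0.03 (adjusted p = 0.688).

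Elsewhere, Nespas, an antisense RNA of the Gnas region, rose by 0.68 (SE 0.18, adjusted p = 0.00313) at 12 to 28 counts. It overlaps Gnas, which had 22343 to 26862 counts and a log2 fold change of -0.03 (adjusted p = 0.587). Ube3a, a ubiquitin ligase gene, had a log2 fold change of -0.49 (adjusted p = 4.26e-06), Zrsr1, of the splicing machinery, of -0.63 (adjusted p = 3.46e-07) and Inpp5f, a phosphoinositide phosphatase gene, of -0.46 (adjusted p = 3.61e-07), and these 3 fell. H13, which encodes signal peptide peptidase, rose by 0.58 (adjusted p = 6.63e-08).

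**Figure D3:**
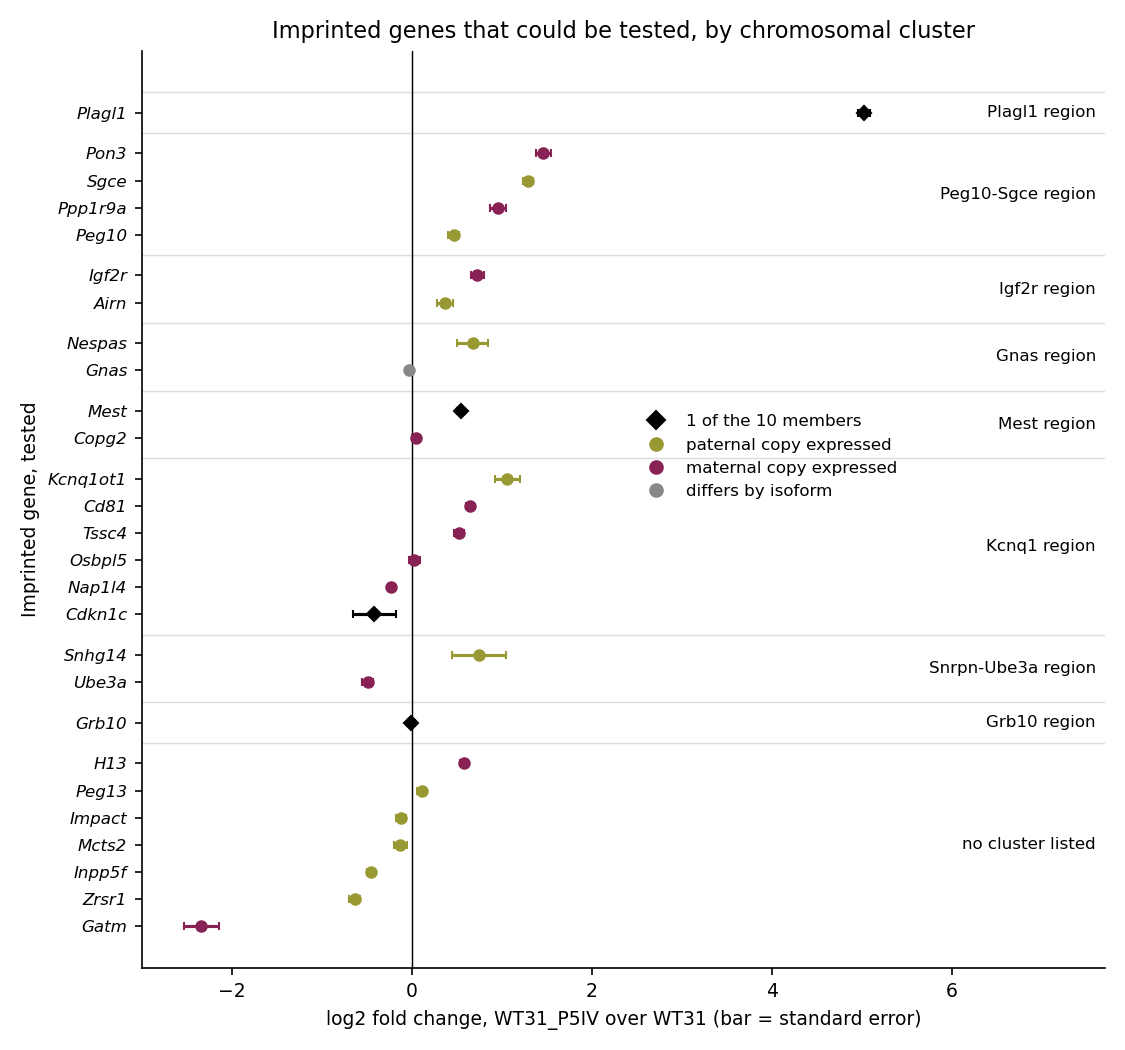
Log2 fold change of WT31_P5IV over WT31 (x axis, bar = standard error of edgeR) of the 27 imprinted genes that could be tested, by chromosomal cluster (y axis), with diamonds for the 4 measured imprinted growth genes. Plagl1 stands at 5.03, all 4 tested genes of the Peg10 and Sgce cluster lie between 0.47 and 1.46, and Gatm at -2.34.

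Genes of the lists, other than the cell type markers, that were too low for edgeR but not under the limit in all libraries went into a two-sided exact permutation of mean CPM over the libraries, whose smallest p with 5 against 5 libraries is 0.00794. Of these 15 genes, none differed after adjustment, and the lowest adjusted p was 0.387. Over 15 genes, a single gene at the smallest p could not have passed 0.05 after adjustment, so this says little about single genes. The lowest unadjusted exact p was 0.0476, that of the imprinted Tspan32, and it was the only 1 under 0.05. Usp29 and Zim1, which lie beside Peg3, had at most 8 counts in a library, and Rian, which lies beside Meg3, at most 7.

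For each of the 10 imprinted growth genes, the 3 nearest tested protein-coding genes on each side were compared between the lines. Copg2, Tssc4, Cd81, Nap1l4 and Ube3a are among them and belong to the imprinted genes counted above. The gaps reached 5810 kb (Oca2 and Ndn). Where a growth gene was not detectable in either line, its neighbors cannot show whether they moved along with it. Of these 45 genes, 16 were higher, 15 lower and 14 did not pass the test in edgeR, and with TPM in limma 9 were higher and 16 lower. The share called among all tested genes was 68.5%. The nearest neighbor before Plagl1, Sf3b5, a gene of the splicing machinery, had a log2 fold change of 0.36 (SE 0.08, adjusted p = 9.53e-04) at a gap of 51.3 kb. The nearest after it, Ltv1, a gene of ribosome assembly, had one of -0.27 (SE 0.04, adjusted p = 1.11e-05) at a gap of 46.4 kb. Further out, Stx11 before Plagl1 stood at -0.51, and Phactr2 and Fuca2 after it at 0.46 and 0.45, so that each side held genes of both directions. The neighbors called and past a log2 fold change of 1 in size were Trpm5 and Trpm1, beside 9.10% of all tested genes. Trpm5, a cation channel gene, lies at a gap of 364 kb from Cdkn1c (1.17, adjusted p = 4.45e-04). It had 9 to 18 counts in WT31 and 22 to 38 in WT31_P5IV. It overlaps Tssc4 on the other strand, and without a known strand setting their counts cannot be fully told apart. Trpm1, a channel gene of pigment cells, lies at a gap of 1804 kb from Ndn (-1.10, adjusted p = 2.52e-11).

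Within 2 Mb of the Plagl1 start, 18 other genes were tested, of which 5 were higher and 6 lower (68.5% of all tested genes were called), with a median log2 fold change of -0.06. Of these 18, 2 were called and passed a log2 fold change of 1 in size, beside 9.10% of all tested genes. They are named after their values were seen. Aig1, which encodes a hydrolase of fatty acid esters, had 19 to 34 counts in WT31 and 65 to 87 in WT31_P5IV (log2 fold change 1.46, SE 0.15, adjusted p = 5.86e-07). Adgrg6, an adhesion G protein-coupled receptor gene, had 22 to 34 counts in WT31 and 0 in all WT31_P5IV libraries, which is at least 8.85-fold lower against the limit of 3 counts per library. Around Mest, 10 of 25 genes were higher and 1 was lower, with a median of 0.12.

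**Figure D4:**
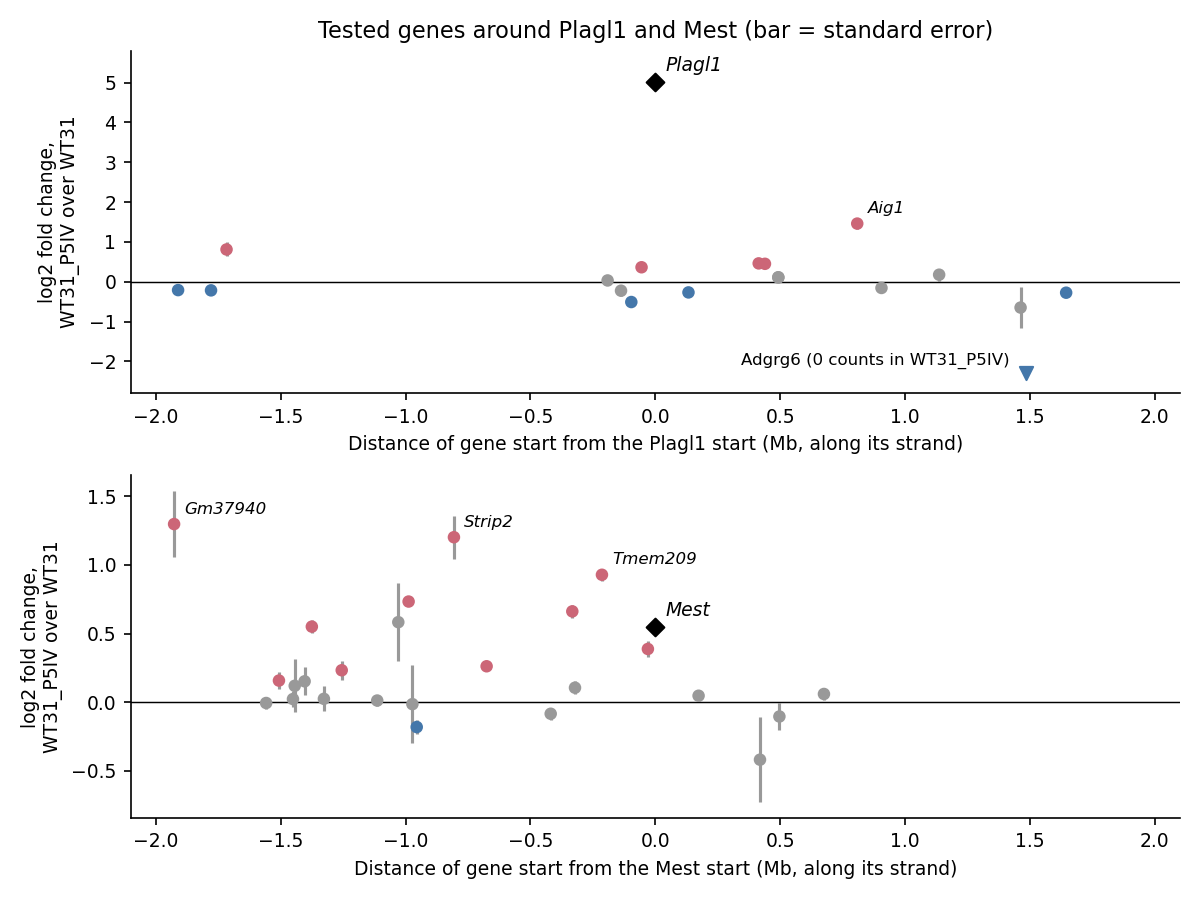
Log2 fold change of WT31_P5IV over WT31 (y axes, bar = standard error of edgeR) of the tested genes within 2 Mb of the starts of Plagl1 and Mest (x axes, distance in Mb along the strand of the gene), with higher genes in red, lower genes in blue, genes that did not pass the test in grey and a triangle for Adgrg6, which has no finite fold. Plagl1 at 5.03 stands apart from its neighbors, whereas Mest at 0.55 lies within the range of genes around it.

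The family of Plagl1 comprises the oncogene Plag1 and Plagl2 besides Plagl1 itself. Plagl2 had 1254 to 1454 counts in WT31 and 1042 to 1154 in WT31_P5IV and fell to a log2 fold change of -0.20 (SE 0.04, adjusted p = 7.66e-04), without overlap. Plag1 was near the limit of detection in both lines, at 5 to 10 counts in WT31 against 4 to 10 in the subline (exact permutation p = 0.667). In CPM, Plagl2 stood at 53.2 ± 2.88 (SD, n = 5) in WT31 and 46.2 ± 1.59 (SD, n = 5) in WT31_P5IV.

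Of 7 genes listed as reported targets of PLAGL1, 4 could be tested, of which 2 rose and 2 fell, beside 68.5% called among all tested genes, with a median log2 fold change of 0.13. Tgfb2, a growth factor gene, rose by 0.60 (SE 0.05, adjusted p = 1.51e-07), and Socs3, an inhibitor of cytokine signaling, by 0.48 (SE 0.12, adjusted p = 0.00219). Tcf4, which encodes a helix-loop-helix factor, had a log2 fold change of -0.71 (SE 0.05, adjusted p = 3.02e-08) and Cdkn1a, which encodes the inhibitor p21, of -0.23 (SE 0.05, adjusted p = 0.00130). Adcyap1r1, the PACAP receptor gene, which PLAGL1 can induce, had 0 counts in all libraries, Pparg at most 1 and the glucose transporter gene Slc2a4 at most 5.

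Beside Cdkn1c, the related inhibitor gene Cdkn1b (p27) rose by 0.26 in edgeR (SE 0.04, adjusted p = 1.94e-05). With TPM it did not pass the test, at a log2 fold change of 0.03 (limma, adjusted p = 0.569). Cdkn1b lies on chromosome 6, whose tested genes had a median of 0.28, and the part of this shift in its value was not tested. The mouse gene Nras had a log2 fold change of -0.37 (SE 0.04, adjusted p = 1.01e-06). The study detected the mutant transgene of these cells with a PCR of human NRAS. Whether reads of the transgene were counted for the mouse gene was not tested, so the value is no separate measure of either.

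Although Igf2 itself was not detectable, genes of its signaling were, and all 6 that could be tested differed in edgeR, 3 higher and 3 lower, where 68.5% of all tested genes did. Igf1r and Insr, the receptors for IGF1, IGF2 and insulin, rose by 0.73 (SE 0.05, adjusted p = 2.51e-08) and 0.67 (SE 0.07, adjusted p = 1.34e-06). Their adaptors Irs1 and Irs2 had log2 fold changes of -0.32 (adjusted p = 0.00518) and -0.20 (adjusted p = 9.20e-04). Igf2bp2, an RNA-binding protein of Igf2 mRNA, fell from 126 ± 3.42 CPM (SD, n = 5) to 43.9 ± 1.90 CPM (SD, n = 5), a log2 fold change of -1.53 (SE 0.04, adjusted p = 2.86e-13), whereas the related Igf2bp3 rose by 0.49 (SE 0.04, adjusted p = 2.00e-07). Igf2bp2 lies on chromosome 16, whose 415 tested genes had a median of -0.42, and Igf2bp3 on chromosome 6, with a median of 0.28. The part of these shifts in the values of the 2 genes was not tested. The ligand Igf1 had at most 2 counts.

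Of the 15 listed genes that set, keep or erase imprints, Dppa3 had 0 counts in all libraries, Dnmt3l had at most 2, and Zfp57 was too low for edgeR. Of 12 tested, 5 rose, 3 fell and 4 did not pass the test in edgeR, beside 68.5% called among all tested genes. With TPM in limma 3 rose and 4 fell. With the replicate block, with upper-quartile scaling or without WT31 replicates 2 and 3, 7 rose and 3 fell. Uhrf1, which guides the maintenance methyltransferase to newly copied DNA, rose by 0.32 (SE 0.03, adjusted p = 1.61e-07), and Dnmt1, that methyltransferase, by 0.14 (SE 0.04, adjusted p = 0.00261), although the sign for Dnmt1 turned with TPM. Tet3, an enzyme that oxidizes methylated cytosine, rose by 0.36 (SE 0.05, adjusted p = 1.77e-05). The related Tet2 fell to -0.32 (SE 0.10, adjusted p = 0.00988) and Tet1 stood at -0.13 (adjusted p = 0.376). Tet3 lies on chromosome 6, whose tested genes had a median of 0.28, and the part of this shift in its value was not tested. Dnmt3b, a methyltransferase that sets new methylation, rose by 0.32 (SE 0.06, adjusted p = 2.72e-04), but not in the analysis of TPM. Smchd1, a chromatin protein that helps to silence imprinted clusters, fell to -0.51 (SE 0.07, adjusted p = 1.44e-05). No gene of this list reached a log2 fold change of 1 in size. Zfp57, the factor whose letters were searched above, had 3 to 10 counts per library in both lines (exact permutation p = 0.706).

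For the genes whose profile was most like that of Plagl1, Pearson's correlation of log2 CPM over the 10 libraries was used as a description. The highest were Syn2, which encodes a synaptic vesicle protein, with r = 0.9994, followed by Plekha7, Apoe, Gm773 and Ltbp4 down to 0.998. Since the libraries fall into the lines, r mainly follows the difference between them, and genes of different size of change share it. Apoe rose by 4.89 and Gm773 by 6.35, more like Plagl1, and the other 3 by 1.86 to 1.88.

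As the libraries are bulk RNA, more RNA of Plagl1 per cell and more cells that express it cannot be told apart in these values. The summed level of fibroblast and stellate cell markers was also higher in every WT31_P5IV library, with Col3a1 at 0 to 3 counts in WT31 and 10 to 18 in WT31_P5IV, and Pdgfra and Pdgfrb did not pass the test (adjusted p = 0.850 and 0.618, edgeR). These markers summed to at most 6.92 CPM, against 39.0 to 42.7 CPM of Plagl1 in WT31_P5IV, and their part in the result was not tested. Neither was that of the rise in Cd68.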

How the data were processed

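RNA of cultured WT31 and WT31_P5IV cells was sequenced in 5 libraries each. The authors trimmed reads with Trim Galore 0.6.4 and quantified them with kallisto (version 0.4.6 in the submitters' processing notes) against GRCm38.p6, and the deposited values are estimated counts and TPM per gene, of which 55144 of 55385 identifiers were matched to GENCODE M21. The estimated counts, as deposited by the authors, were rounded and tested with edgeR 4.0.16 under R 4.3.3 (filterByExpr, TMM, glmQLFit, glmQLFTest, Benjamini-Hochberg over 13620 genes, threshold 0.05). The TPM deposited by the authors served for levels between genes and, after addition of 0.1 or 1 on the log2 scale, for limma 3.58.1 as an alternative. Standard errors come from the log2 fold change without prior count and the F statistic. Intervals and limits cover counting error only. The study compared the lines with limma voom, which was an alternative, as were DESeq2 1.42.0, other scalings and filters, the replicate number as a block and leaving out each library. Omitting WT31 replicates 2 and 3 together was added after seeing the data.

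The members and lists were chosen with earlier results of these data known. Named were the 10 members, up to 4 called genes without overlap and with the largest change per list (8 for imprinted genes), neighbors past a log2 fold change of 1 and the nearest beside Plagl1, all PLAG family, target and genotype genes, and the 5 genes most like Plagl1. The genes most like Mest, which the rule also covers, are not reported here. Further genes of the lists (Peg10, Airn, Tssc4, Nap1l4, Osbpl5, Copg2, Gnas, Ube3a, Zrsr1, Inpp5f, H13, Tspan32, Irs1, Irs2, Dnmt1, Dppa3, Dnmt3l, Tet1, Tet2, Zfp57, Stx11, Phactr2, Fuca2 and some markers) were named outside this rule to complete regions or pairs, after their values were seen. The edgeR test was tried on simulated counts before use. Promoter windows are from RefSeq (GRCm38.p6), and words of 31 bases from GENCODE M21 transcripts. Python 3.11.15, numpy 2.4.6 and pandas 2.3.3 were used. The strand setting of the counting is not given in the sources used here.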

Additional observations from a re-analysis of the deposited data

Results flagged for a closer look

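In 78 groups of 5 libraries, 1 library lay far from the others of its line in 2 cases, by a gap to the nearest library of more than 0.71 of the group's whole range, and about 1 group in 20 is marked so by chance. Gatm stood at 1.07 CPM in WT31_P5IV replicate 5, where the nearest library of the line had 0.589 CPM, and this corresponds to 26 counts. Igf2bp3 stood at 64.8 CPM in WT31_P5IV replicate 4, against 60.2 CPM in the nearest. Plagl1, Mest, Grb10 and Cdkn1c were not marked in this way, and the other 6 imprinted growth genes, with at most 3 counts in any library, were not examined.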

How the results depend on the processing

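The number of genes past a log2 fold change of 1 in size, 1240, was 698 when 10 counts were required in every library, 2319 when all genes from 1 count upwards were tested and 465 with limma on log2(TPM + 1), whose pseudocount shrinks the changes of low genes. The other 137 values of the counts of calls stayed within 1.5 times. Leaving out 1 library at a time gave 8965 to 9444 called genes, 1265 to 1336 past a log2 fold change of 1, and 16 to 18 called imprinted genes other than the 10, and a log2 fold change of 4.99 to 5.04 for Plagl1, 0.51 to 0.57 for Mest, -0.04 to 0.00 for Grb10 and -0.58 to -0.32 for Cdkn1c. Of the imprinted genes other than the 10, 3 to 5 passed a log2 fold change of 1 when 1 library was left out. Without WT31 replicates 2 and 3, 19 of the other imprinted genes were called and 6 instead of 4 passed a log2 fold change of 1. Plagl1 was at 4.53 with log2(TPM + 0.1), 3.22 with log2(TPM + 1) and 4.96 without scaling factors. Mest was at 0.37 with both TPM settings and 0.48 without scaling. Snhg14, among the 12 higher imprinted genes, lost its call in 9 settings, with TPM, without scaling factors and without WT31 replicate 1, 4 or 5 or WT31_P5IV replicate 2, 4 or 5, and the cause was not tested. The replicate numbers do not pair the libraries, since libraries with the same number correlated between -0.13 and 0.53 in their deviations and only the libraries numbered 3 and 4 correlated best with their own number, and the replicate block gave 9380 called genes and 17 imprinted ones. Genes under about 3 counts, 6 of the 10 imprinted growth genes, could not be compared at this depth.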
